A study of Homo sapiens with 36 samples.

Results

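A set of 6 genes was followed that was named for the first hour of Src activity: the GADD45 family (GADD45A, GADD45B and GADD45G), SGK1, RGS2 and EFNA1. These are 6 of the 19137 gene symbols in the tables. They were chosen by name, with the change of ribosome footprints at 1 h of induction in view, so that change is described below and not tested. MCF10A-ER-Src is a human breast epithelial line in which Src is joined to a hormone-binding receptor domain, and 4-hydroxytamoxifen, given at 1 µM, activates it. Cells were taken at 0 h, after 1, 4 or 24 h of tamoxifen, or after the same times in ethanol, the vehicle, and every ER-Src library carries the fusion. BJ is a human skin fibroblast line, and its derivatives EH, EL and ELR served as the contrast. What the letters stand for is not in the labels. By common usage they mark stepwise addition of telomerase (EH), the SV40 early region (EL) and oncogenic HRAS (ELR). The labels do not say whether a line is 1 clone, or whether replicates came from separate cultures, so p-values measure only the spread between these libraries, which may be technical.

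GADD45 proteins are small stress sensors. These proteins bind the kinase MAP3K4 upstream of p38 and JNK and also bind PCNA and CDK1, and GADD45A is a classical p53 target. SGK1 is a serine/threonine kinase related to AKT. Its message is short-lived and is induced by serum and by glucocorticoids, and its substrates include NEDD4L and NDRG1. RGS2 speeds GTP hydrolysis by G alpha subunits, mainly of the Gq class, and so shortens signals of G protein-coupled receptors. EFNA1 is a membrane-anchored ligand of EphA receptors, EPHA2 among them. Genes of these kinds are often transcribed within minutes of a stimulus, and several then shut off again.

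The 36 libraries comprised 21 from ER-Src cells (7 of RNA, 10 of footprints under cycloheximide and 4 of footprints under harringtonine) and 15 from the BJ lines (3, 6 and 6). Ribosome footprints are the stretches of messenger RNA that ribosomes cover. Cycloheximide at 100 µg/ml for 90 s arrests elongating ribosomes, and harringtonine at 2 µg/ml for 5 min holds ribosomes at start codons. Total counts per library ran from 2071883 to 3008760 for RNA, from 1178012 to 3628073 under cycloheximide and from 129175 to 374359 under harringtonine. SRC itself read 222 to 491 CPM in ER-Src cycloheximide footprints and 21.0 to 30.1 CPM in those of BJ. ESR1, the oestrogen receptor, part of which is in the fusion, read 758 to 1691 CPM and 0 CPM in the same libraries. HRAS footprints were 138 to 152 CPM in ELR and 26.5 to 33.9 CPM in EH and EL. The 12 epithelial markers summed to 11030 to 19750 CPM in ER-Src cycloheximide footprints and 867 to 1399 CPM in BJ, where KRT5 and CDH1 had no count. The 10 fibroblast markers summed to 998 to 1662 CPM and 10920 to 43380 CPM in the same order, with no count of COL1A2, COL3A1 or THY1 in ER-Src cells. Leukocyte markers (8 genes) summed to at most 150 CPM and endothelial markers (8 genes) to at most 19.7 CPM in these libraries. Cycloheximide replicates of a BJ line differed little beyond counting error (chi-square per gene 1.10 to 1.17), whereas those of an ER-Src condition differed more (3.58 to 4.99).

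On GRCh37 the annotation places GADD45A at chr1:68150884-68154017, GADD45B at chr19:2476120-2478257, GADD45G at chr9:92219927-92221470, RGS2 at chr1:192778169-192781405 and EFNA1 at chr1:155100352-155107375, all on the plus strand. SGK1 lies on the minus strand at chr6:134490386-134639250. RefSeq promoter windows (GRCh38.p14) were found for 5 of the 6 members, 7 windows in all. The 100 bases before the start are shown for the 4 members whose footprints were higher at 1 h, since they show how these starts differ. Capitals mark TATAAA or GGGCGG on either strand (TTTATA and CCGCCC on the other).

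GADD45B: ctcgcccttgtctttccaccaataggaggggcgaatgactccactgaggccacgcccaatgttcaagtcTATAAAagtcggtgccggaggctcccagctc
SGK1: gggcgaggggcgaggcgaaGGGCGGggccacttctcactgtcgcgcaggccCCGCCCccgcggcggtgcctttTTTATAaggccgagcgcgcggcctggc
RGS2: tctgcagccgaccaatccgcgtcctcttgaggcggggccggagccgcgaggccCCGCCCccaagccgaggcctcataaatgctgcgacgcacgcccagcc
EFNA1: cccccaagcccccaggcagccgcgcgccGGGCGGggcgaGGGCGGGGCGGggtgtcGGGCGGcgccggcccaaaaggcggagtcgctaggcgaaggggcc

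These runs are chr19:2476027-2476126 (plus strand) for GADD45B, chr6:134174867-134174966 (minus strand) for SGK1, chr1:192808939-192809038 (plus) for RGS2 and chr1:155127776-155127875 (plus) for EFNA1. The SGK1 run belongs to the third of its 3 windows. In 250 bases before the start, the TATA box letters TATAAA stood at -31 to -26 on the gene's own strand in GADD45B. That SGK1 window held them at -27 to -22 on the opposite strand only (TTTATA as printed). Of the other SGK1 windows, the first held them on the opposite strand (-96 to -91) and the second on the gene's own (-15 to -10). RGS2, EFNA1 and GADD45G windows did not contain them. Of all 35116 windows, 10.7% did. The Sp1 letters GGGCGG occurred 5 times in EFNA1, where 2 of the matches share a base, 6 times in the third SGK1 window and 1 time in RGS2, against 42.6% of windows with at least 1. No member window held the cyclic AMP response element TGACGTCA (1.65% of windows), the AP-1 site TGACTCA (4.2%), a CArG box (1.16%) or the glucocorticoid receptor letters TGTTCT (12.4%). A match is a description of letters, not of a bound site.

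At 1 h of tamoxifen, footprints of GADD45B, SGK1, RGS2 and EFNA1 were higher in both tamoxifen libraries than in all 4 uninduced libraries. Those 4 were 0 h (replicate 1) and ethanol at 1, 4 and 24 h (replicate 2). GADD45A overlapped with them, and GADD45G was almost unread. Of the 10193 genes that passed the filter on low counts, 8.61% had both 1 h libraries above all 4 uninduced ones. Since this contrast chose the members, their 4 of 5 is a description. Levels below are normalised read counts (CPM, library size corrected by the trimmed mean method), and log2 differences come with their SE from a fit of all 10 libraries. RNA and footprints are scaled separately, so their levels are not on 1 scale, and levels are not compared between genes. A lower level cannot be told apart from fewer expressing cells.

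**Figure D1:**
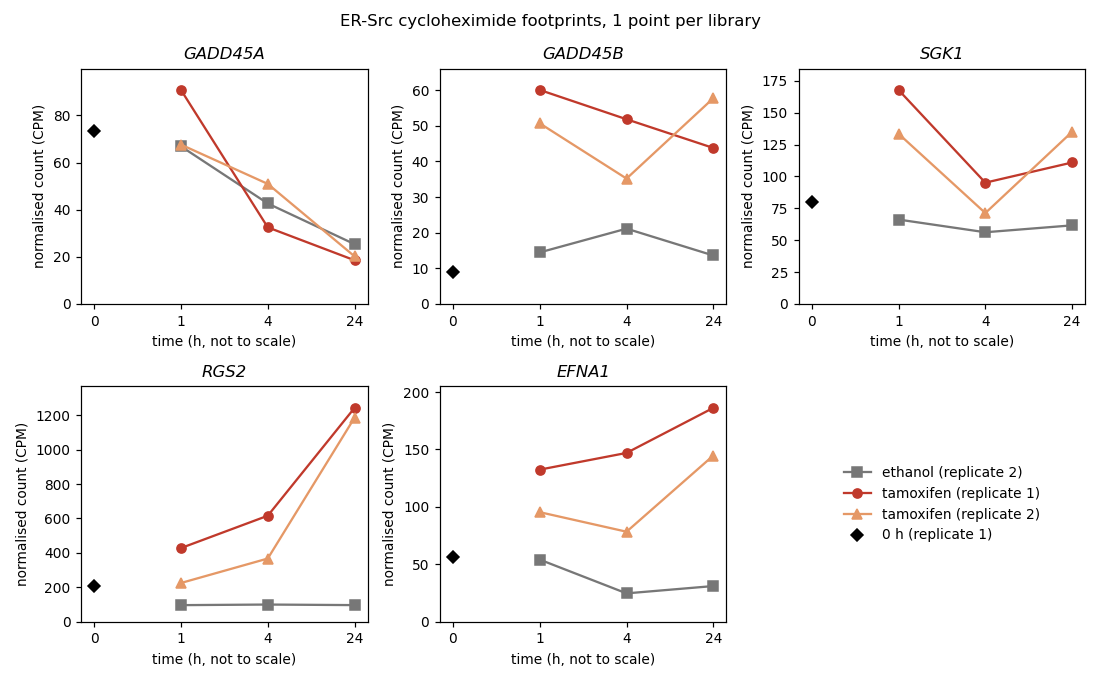
Cycloheximide footprints of 5 members in ER-Src cells; the x axis is time in h (not to scale), the y axis normalised count (CPM), and each point is 1 library. Tamoxifen libraries of RGS2 climb to 1186 and 1243 at 24 h, SGK1 is lower at 4 h than at 1 or 24 h in both replicates, and GADD45A descends in ethanol as well as in tamoxifen.

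GADD45A footprints stood at 73.2 CPM at 0 h and at 66.9, 42.6 and 25.3 CPM after 1, 4 and 24 h of ethanol. With tamoxifen they were 90.8 and 67.6 CPM at 1 h, 32.5 and 50.9 CPM at 4 h and 18.5 and 20.2 CPM at 24 h (replicates 1 and 2). The level was thus lower at later times with either agent, and at each time the replicate 2 tamoxifen library lay close to its ethanol partner: 1.01, 1.20 and 0.796 times it at 1, 4 and 24 h. Against the pooled uninduced arm (52.0 ± 22.1 CPM, SD, n = 4), the log2 difference was 0.65 ± 0.31 (SE) at 1 h, -0.23 ± 0.32 at 4 h and -1.38 ± 0.37 at 24 h. At 24 h both tamoxifen libraries lay below all 4 uninduced ones, as did 17.3% of all genes tested. Within replicate 1, against 0 h, the same quantity read 1.24, 0.444 and 0.253 times. The reading of GADD45A at 4 h therefore depends on whether 0 h or the ethanol of the same time is its control.

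GADD45A RNA showed the same order of times, from 1 library each. It was 38.1 CPM at 0 h, 30.4, 27.0 and 14.5 CPM in ethanol and 56.5, 34.3 and 9.45 CPM in tamoxifen at 1, 4 and 24 h. The RNA at 1 h of tamoxifen was above all 4 uninduced libraries, at 1.86 times its ethanol partner, while at 24 h it was below them. Harringtonine footprints, again 1 library each and with 10 to 23 counts, read 111.9, 105.3, 55.2 and 26.2 CPM at 0, 1, 4 and 24 h of tamoxifen. All 3 readouts were lowest at 24 h.

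GADD45B was the member with the largest log2 difference at 1 h. Its footprints were 8.96 CPM at 0 h and 14.4, 21.1 and 13.6 CPM in ethanol at 1, 4 and 24 h. With tamoxifen they were 60.1 and 50.7 CPM at 1 h, 51.9 and 35.2 CPM at 4 h and 43.8 and 57.8 CPM at 24 h, so that all 6 tamoxifen libraries lay above all 4 uninduced ones. The log2 difference from uninduced (14.5 ± 5.01 CPM, SD, n = 4) was 1.87 ± 0.25 at 1 h, 1.50 ± 0.25 at 4 h and 1.76 ± 0.24 at 24 h. The level did not return to that of the uninduced cells at either later time. Within replicates, tamoxifen over control was 6.70, 5.79 and 4.88 times in replicate 1 (over 0 h) and 3.51, 1.67 and 4.25 times in replicate 2 (over ethanol). The 0 h library, with 12 counts, was the lowest of the uninduced libraries.

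GADD45B RNA was low, at 7.21 CPM at 0 h and 6.30, 5.23 and 6.03 CPM in ethanol. In tamoxifen it was 14.8, 9.09 and 16.7 CPM at 1, 4 and 24 h, above every uninduced library at each time. The log2 ratio of footprints to RNA, with a pseudocount of 1 CPM, was 0.28 at 0 h and 1.08, 1.83 and 1.05 in ethanol. In tamoxifen it was 1.95 and 1.71 at 1 h, 2.39 and 1.84 at 4 h and 1.34 and 1.73 at 24 h. The ethanol library of 4 h lies within the tamoxifen range, and each RNA condition is a single library of 13 to 46 counts, so no test was made of this ratio. Harringtonine footprints rested on 1, 6, 14 and 15 counts at 0, 1, 4 and 24 h (4.86, 33.2, 77.2 and 35.8 CPM).

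GADD45G, the third family member, was almost unread. Only 7 counts fell on it in all 36 libraries, in 5 of them, and the highest level was 1.14 CPM (2 counts). All 5 libraries were ER-Src cycloheximide footprints, of both ethanol and tamoxifen cells. It passed the filter in no comparison. A count of 0 allows up to 0.783 CPM in the deepest ER-Src cycloheximide library and up to 28.3 CPM in the shallowest harringtonine one (3 counts, counting error only).

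SGK1 footprints were high at 1 h, lower at 4 h and high again at 24 h. They were 79.9 CPM at 0 h and 66.2, 56.2 and 61.6 CPM in ethanol, a narrow range. In tamoxifen they were 168 and 134 CPM at 1 h, 95.2 and 71.3 CPM at 4 h and 111 and 135 CPM at 24 h. Only at 4 h did a tamoxifen library (replicate 2) fall within the uninduced range. Log2 differences from uninduced (66.0 ± 10.1 CPM, SD, n = 4) were 1.21 ± 0.17, 0.34 ± 0.17 and 0.91 ± 0.17 at 1, 4 and 24 h. The ratio to the matched control at 1 h was 2.10 in replicate 1 and 2.02 in replicate 2, and 2.11 in RNA. At 4 h these ratios were 1.19, 1.27 and 1.26, and at 24 h they were 1.39, 2.19 and 1.99.

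SGK1 RNA stood at 26.8 CPM at 0 h and at 26.9, 27.0 and 18.5 CPM in ethanol. It was 57.0 CPM at 1 h of tamoxifen, 33.9 CPM at 4 h and 36.7 CPM at 24 h. RNA and both footprint replicates were lowest at 4 h among the 3 tamoxifen times. RNA and replicate 1 footprints were highest at 1 h, whereas replicate 2 footprints were about as high at 24 h as at 1 h. The log2 ratio of footprints to RNA spanned 1.03 to 1.85 over the 10 ER-Src pairs, with tamoxifen and uninduced libraries interleaved. The 4 listed SGK1 transcripts had mean counts of 121, 120, 120 and 120, so the counts do not tell its starts apart.

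RGS2 did not peak in the first hour but was higher at each later time. Its footprints were 208 CPM at 0 h and 96.4, 99.9 and 96.6 CPM in ethanol. In tamoxifen they were 428 and 225 CPM at 1 h, 616 and 367 CPM at 4 h and 1243 and 1186 CPM at 24 h. Replicate 1 was the higher of each tamoxifen pair, and its 0 h library was also the highest uninduced one. Within replicate 1 the tamoxifen library held 2.06, 2.97 and 5.98 times the 0 h level at 1, 4 and 24 h, and within replicate 2 it held 2.33, 3.68 and 12.3 times the ethanol level. The log2 difference from the pooled uninduced arm (125 ± 55.0 CPM, SD, n = 4) was 1.42 ± 0.30, 2.01 ± 0.29 and 3.30 ± 0.29.

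RGS2 RNA was flat without tamoxifen, at 71.7 CPM at 0 h and 96.2, 78.0 and 98.0 CPM in ethanol. With tamoxifen it was 217.5, 322 and 1057 CPM at 1, 4 and 24 h, or 2.26, 4.13 and 10.8 times ethanol of the same time. The log2 ratio of footprints to RNA in replicate 2 was between -0.02 and 0.35 in all 6 conditions. In replicate 1 it was 1.52 at 0 h and 0.97, 0.93 and 0.23 in tamoxifen at 1, 4 and 24 h. Replicate 1 and 2 footprints share 1 RNA library per condition, and which replicate that library matches is not given. Harringtonine footprints were 82.7 CPM at 0 h and 55.4, 254 and 565 CPM at 1, 4 and 24 h, on 17, 10, 46 and 237 counts. In that readout the 1 h library was not above the 0 h library.

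EFNA1 footprints were 56.8 CPM at 0 h, 54.1 CPM after 1 h of ethanol and 24.7 and 31.1 CPM after 4 and 24 h of ethanol. In tamoxifen they were 132 and 95.4 CPM at 1 h, 147 and 78.4 CPM at 4 h and 186 and 145 CPM at 24 h. All 6 tamoxifen libraries lay above all 4 uninduced ones, and replicate 1 was the higher at each time. Log2 differences from uninduced (41.7 ± 16.1 CPM, SD, n = 4) were 1.49 ± 0.30, 1.45 ± 0.29 and 2.01 ± 0.28. Since the ethanol level itself was lower at 4 and 24 h, the ratio within replicate 2 was 1.76 at 1 h, 3.17 at 4 h and 4.66 at 24 h.

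EFNA1 RNA repeated the ethanol pattern. It was 24.0 CPM at 0 h, 23.8 CPM at 1 h of ethanol and 7.24 and 10.0 CPM at 4 and 24 h. In tamoxifen it was 42.2, 26.6 and 58.2 CPM. At 4 h the RNA was therefore 1.11 times the 0 h library and 3.67 times the ethanol library of the same time. The choice of control changes the reading of the 4 h RNA, while at 24 h both ratios were above 2.4 (2.42 over 0 h and 5.79 over ethanol). Harringtonine footprints had 0, 4, 13 and 48 counts at 0, 1, 4 and 24 h (0, 22.2, 71.7 and 114 CPM), and the 0 at 0 h allows up to 14.6 CPM.

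**Figure D2:**
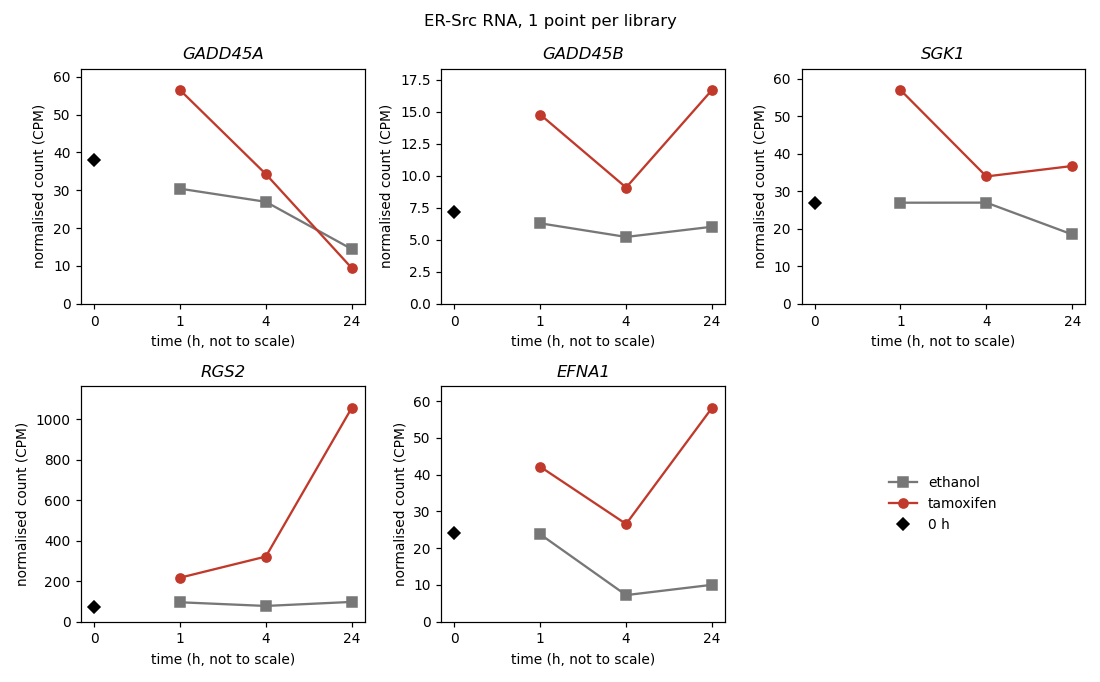
RNA of the same 5 members in ER-Src cells; x axis, time in h (not to scale), y axis, normalised count (CPM), 1 library per point. GADD45A descends in ethanol to 14.5 at 24 h, EFNA1 in ethanol is lower at 4 and 24 h (7.24 and 10.0) than at 1 h, and RGS2 reaches 1057 after 24 h of tamoxifen.

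**Figure D3:**
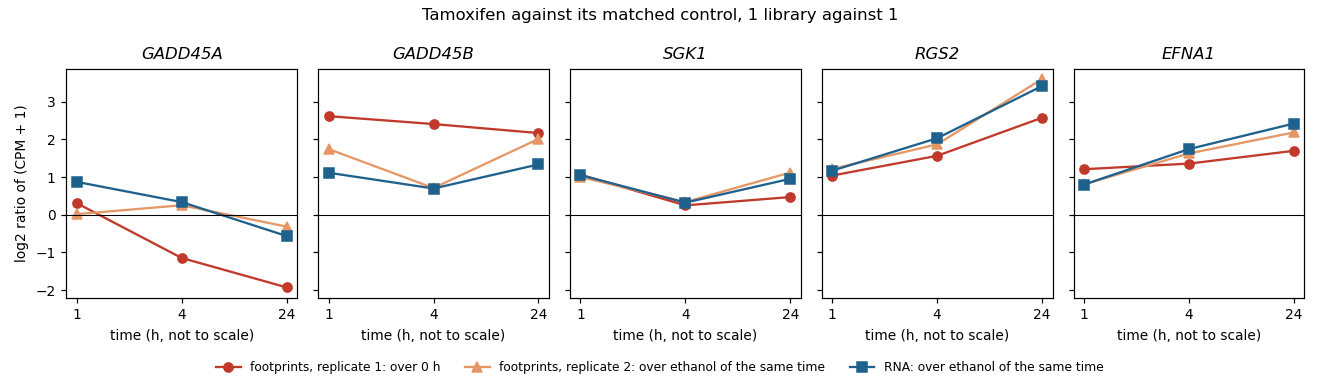
Log2 ratio of CPM plus 1 for each tamoxifen library over its control, 1 library against 1; x axis, time in h (not to scale). Footprints of replicate 1 are set against 0 h, those of replicate 2 and RNA against ethanol of the same time; RGS2 ratios climb from 1.04 to 1.22 at 1 h to between 2.58 and 3.60 at 24 h, and SGK1 ratios dip at 4 h.

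By 4 h, 3 of the 5 members that passed the filter (GADD45B, RGS2 and EFNA1) had both tamoxifen libraries above all uninduced ones, against 8.69% of all genes. By 24 h it was 4 of 5 (SGK1 added), against 19.5%. These contrasts share their uninduced libraries with the one at 1 h and are given side by side without a test of the members.

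The change from 4 to 24 h of tamoxifen, a difference between libraries outside the 1 h contrast, was tested. Its spread, filter and scaling came from the fit of all ER-Src cycloheximide libraries, those of the 1 h contrast included. The p-values are therefore not fully independent of the choice of members. RGS2 footprints rose from 492 ± 176 to 1214 ± 40.4 CPM (SD, n = 2 each), a log2 difference of 1.29 ± 0.34 with an adjusted p of 0.0287 by edgeR's quasi-likelihood test with Benjamini-Hochberg adjustment over 10193 genes. It was the only 1 of 5 members called in that comparison, where 8.41% of all genes were. The RGS2 call did not hold with DESeq2 (adjusted p 0.119) or without tamoxifen 4 h replicate 2 (0.289), 24 h replicate 1 (0.119) or 24 h replicate 2 (0.119). It held under the other settings tried, with adjusted p from 2.94e-05 (no filter on low counts) to 0.0292 (second transcript). SGK1 was higher at 24 h in both libraries, 123 ± 17.0 against 83.2 ± 16.9 CPM, but its log2 difference of 0.57 ± 0.19 did not pass (edgeR adjusted p 0.0859). It passed with the spread of all 16 cycloheximide libraries (adjusted p 0.027), with no filter on low counts (0.0351) and with the replicate number as a block (given below). GADD45A was lower in both, 19.3 ± 1.17 against 41.7 ± 13.0 CPM, with a log2 difference of -1.15 ± 0.41 (edgeR adjusted p 0.104; 0.00694 with no filter). EFNA1 (0.55 ± 0.32, edgeR adjusted p 0.322) and GADD45B (0.26 ± 0.26, edgeR adjusted p 0.603) differed by less than the test could call, and both overlapped between the times.

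RNA of tamoxifen at 4 and 24 h together was tested against the 4 uninduced RNA libraries. Whether RNA values had entered the choice of the members is not recorded, which limits this test. RGS2 RNA rose by a log2 difference of 2.99 ± 0.34, with an edgeR adjusted p of 0.0151 over 10612 genes, of which 0.424% were called (45, all higher). The level was 86.0 ± 13.1 CPM in uninduced cells (SD, n = 4), and the pooled late arm joins 322 and 1057 CPM. The call did not hold without the ethanol library of 1 h (adjusted p 0.129), that of 4 h (0.107) or the 0 h library (0.113). EFNA1 (1.36 ± 0.44, edgeR adjusted p 0.272), GADD45B (1.05 ± 0.36, 0.320) and SGK1 (0.50 ± 0.21, 0.430) were higher without passing. Without the 4 h tamoxifen library the late arm is the single 24 h library, which is assumed to vary like the uninduced ones. EFNA1 then had a log2 difference of 1.82 and an edgeR adjusted p of 0.0193, a comparison of 1 library at 24 h and not of the late arm. GADD45A differed by -0.33 ± 0.46 (edgeR adjusted p 0.852).

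Across the 10 ER-Src cycloheximide libraries, log2 levels of RGS2 and EFNA1 went together most closely among the members (Pearson r 0.91), followed by SGK1 with EFNA1 (0.82) and GADD45B with EFNA1 (0.78). GADD45A correlated with none of them upward beyond 0.06 and was at -0.47 with RGS2. These are descriptions over 10 libraries that share controls, time points and replicate sets. Of 8314 genes searched, those most like RGS2 were ICAM1 (r 0.98, 31.9 to 101 CPM), PPP1R3B (0.98, 5.71 to 108.5 CPM) and ETS2 (0.98, 66.2 to 611 CPM). GADD45A was closest to CDCA4 (0.98), TXNDC17 (0.98) and TOE1 (0.96). GADD45B was closest to UBL5 (0.92), SEC61G (0.92) and VHL (0.90), SGK1 to COX6C (0.94), SEP15 (0.90) and AK4 (0.86), and EFNA1 to R3HDM4 (0.94), PEX13 (0.93) and MOB3B (0.93). Since r ignores the size of a change, the likeness is one of pattern and not of size. UBL5 stayed between 230 and 274 CPM, COX6C between 453 and 591 CPM, PEX13 between 32.9 and 49.6 CPM and TXNDC17 between 238 and 421 CPM, and ICAM1 spanned a narrower fold than RGS2.

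Other genes of the members' pathways changed mainly at 24 h. Against uninduced footprints, 0.0196% of all genes were called at 1 h, 0.854% at 4 h and 14.6% at 24 h. At 24 h, 897 of the 10193 genes tested were called higher and 595 lower. From 4 to 24 h of tamoxifen the numbers were 523 and 334. The list counts below stand beside these backgrounds. The uninduced arm joins 0 h with ethanol at 1, 4 and 24 h, so a 24 h call does not separate tamoxifen from elapsed time. The change from 4 to 24 h of tamoxifen has no ethanol partner in its test and does not separate them either. None of the 83 pathway genes tested, in 6 lists, was called at 1 h by edgeR or by DESeq2 (2 had an unadjusted edgeR p under 0.05). At 4 h only DUSP1, a MAPK phosphatase in the glucocorticoid-induced list, was called (336 against 185 CPM, log2 difference 0.86 ± 0.18, edgeR adjusted p 0.0314), and 5 of 13 alternatives ended that call, among them leaving out 0 h (adjusted p 0.0582), ethanol 1 h (0.065), ethanol 4 h (0.093) or tamoxifen 4 h replicate 1 (0.873). DESeq2 called 2 genes of the lists at 4 h.

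Of the kinases, activators and substrates around SGK1, 3 of 13 tested genes rose at 24 h against uninduced and none fell. NDRG1, an SGK1 substrate that is also a stress-response gene, rose from 204 to 2186 CPM (log2 difference 3.41 ± 0.19, edgeR adjusted p 2.44e-08). NEDD4L, the ubiquitin ligase that SGK1 phosphorylates, rose from 53.1 to 174 CPM (1.68 ± 0.14, edgeR adjusted p 9.78e-07), and the mTORC2 subunit MAPKAP1 from 42.8 to 69.7 CPM (0.67 ± 0.17, edgeR adjusted p 0.0141; 0.215 without tamoxifen 24 h replicate 1). The list's median log2 difference was 0.14, against -0.01 for all genes. From 4 to 24 h, NDRG1 (2.79 ± 0.24) and NEDD4L (1.82 ± 0.18) rose (edgeR adjusted p 6.9e-06 and 1.79e-05).

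Of the glucocorticoid-induced genes, 7 of 13 rose at 24 h against uninduced and none fell, with a median of 1.08. Among the 4 of smallest p were ZFP36, which speeds decay of AU-rich messages (32.6 to 160 CPM, log2 difference 2.27 ± 0.18), DUSP1 (185 to 676 CPM, 1.85 ± 0.17), the repressor BCL6 (7.48 to 36.7 CPM, 2.25 ± 0.34) and the Krüppel-like factor KLF9 (2.18 to 13.1 CPM, 2.79 ± 0.48). Their edgeR adjusted p ran from 3.61e-07 to 0.000778. Several genes of this list also answer to other stimuli, so the count describes the list and not a hormone.

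Around GADD45, 1 of 16 tested genes rose and 1 fell at 24 h against uninduced, with a median of 0.03. MAP3K5, a stress kinase upstream of p38 and JNK, rose from 19.0 to 42.9 CPM (log2 difference 1.14 ± 0.22, edgeR adjusted p 0.00213). PCNA, the replication clamp that GADD45 proteins bind, fell from 765 to 332 CPM (-1.22 ± 0.20, edgeR adjusted p 0.000553). Of 19 tested p53 targets (median -0.13) none rose and 4 fell: DDB2 (63.6 to 38.1 CPM), FDXR (36.2 to 21.3 CPM), CCNG1 (150 to 102 CPM) and PLK3 (28.9 to 14.5 CPM), with edgeR adjusted p from 0.00623 to 0.0468. Each of these 4 calls was lost in 2 to 6 of 13 alternatives. That of DDB2 did not hold without either 24 h library (adjusted p 0.0706 and 0.0708).

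Among RGS proteins and G alpha subunits, 1 of 13 rose at 24 h against uninduced (median 0.11). It was RGS16, another GTPase-activating protein of the same family, at 46.1 against 4.38 CPM (log2 difference 3.40 ± 0.31, edgeR adjusted p 1.69e-06). From 4 to 24 h RGS16 also rose (2.63 ± 0.36, edgeR adjusted p 0.000343) and RGS20 fell (-1.30 ± 0.31, edgeR adjusted p 0.0156; the latter lost in 5 of 11 alternatives). Among ephrins and Eph receptors, 1 of 9 fell at 24 h against uninduced and none rose (median -0.14). That gene was EPHB2, a receptor for the B class of ephrins, from 30.6 to 8.41 CPM (-1.95 ± 0.41, edgeR adjusted p 0.00386; 0.151 without tamoxifen 24 h replicate 2). In late RNA edgeR called no gene of the 6 lists (14 of 83 had an unadjusted p under 0.05), and DESeq2 called 4.

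In the BJ lines SGK1, GADD45B and RGS2 footprints fell between EH and ELR, and EFNA1 and GADD45G were all but unread. EFNA1 had 1 count in all 15 BJ libraries. Its uninduced ER-Src cycloheximide footprints held 425 counts among 10734870, against 1 among 11722851 in BJ, a ratio of 464 (95% counting interval 82.8 to 18370). RGS2 was 28.2 times as high in uninduced ER-Src footprints (1214 counts against 47, interval 21.1 to 38.6). The BJ side pools lines that differ: RGS2 averaged 9.38 CPM in EH, 3.62 in EL and 1.21 in ELR, against 125 CPM in uninduced ER-Src cells. The pooled ratio and its interval thus describe no single line. RGS2 RNA was 86.0 CPM in uninduced ER-Src cells and 27.8, 1.81 and 4.75 CPM in EH, EL and ELR. These ratios compare libraries of 2 cell types that differ in many ways, and their intervals cover counting error only. GADD45G had no count in any BJ library.

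SGK1 footprints fell in each step of the BJ lines. They were 154 and 155 CPM in EH, then 89.5 and 92.5 CPM (EL) and 69.5 and 68.1 CPM (ELR), with no overlap between lines. The log2 difference was -0.75 ± 0.11 in EL against EH (edgeR adjusted p 7.98e-09), -0.38 ± 0.11 in ELR against EL (0.00373) and -1.13 ± 0.11 in ELR against EH (5.69e-14). The call of ELR against EL did not hold with DESeq2 (adjusted p 0.107) or with the spread of all 16 cycloheximide libraries (0.118). RNA was 86.6, 38.5 and 20.1 CPM in EH, EL and ELR, 1 library each, in the same order. Harringtonine footprints were 68.7 and 94.4, then 59.1 and 59.4, then 25.1 and 22.6 CPM. There ELR against EH was called (log2 difference -1.72 ± 0.59, edgeR adjusted p 0.0161), on 5 to 10 counts per library, and this call did not hold with DESeq2 (0.158), with library totals (0.0538), with no filter (0.059) or without any 1 of its 4 libraries (0.0608 to 0.229). EL against EH (-0.42 ± 0.52, edgeR adjusted p 0.642) and ELR against EL (-1.30 ± 0.58, 0.112) were not called under harringtonine.

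GADD45B footprints were 33.9 and 39.3 CPM in EH. The EL libraries read 30.1 and 36.5 CPM, and the ELR libraries 16.6 and 18.8 CPM. They fell in ELR against EL (log2 difference -0.89 ± 0.20, edgeR adjusted p 0.000177) and against EH (-1.01 ± 0.23, 0.000119), and EH and EL overlapped (-0.12 ± 0.20, 0.665). Its RNA was 8.53, 11.3 and 10.6 CPM in EH, EL and ELR, so the single RNA library of ELR was not the lowest. The log2 ratio of footprints to RNA was 1.87 and 2.08 in EH, 1.34 and 1.61 in EL and 0.60 and 0.77 in ELR.

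RGS2 footprints were low in BJ cells: 10.5 and 8.23 CPM in EH, 4.95 and 2.28 CPM in EL, and in ELR 1.89 and 0.536 CPM, on 1 to 14 counts. ELR was lower than EH by a log2 difference of -2.74 ± 0.62 (edgeR adjusted p 0.000119). EL against EH was called at -1.32 ± 0.49 (edgeR adjusted p 0.026), a call that did not hold with DESeq2 (0.223), with the spread of all 16 libraries (0.291), or without EH replicate 1 (0.256), EH replicate 2 (0.0674) or EL replicate 2 (0.219). ELR against EL was not called (-1.43 ± 0.67, 0.0886). In RNA, EH read 27.8 CPM, EL 1.81 CPM and ELR 4.75 CPM.

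GADD45A footprints differed little between the BJ lines, and no difference was called. Both EL and both ELR libraries nevertheless lay below both EH libraries, while EL and ELR overlapped. They were 79.8 and 77.7 CPM (EH), 59.8 and 71.6 CPM (EL) and 63.5 and 69.7 CPM (ELR), with log2 differences of -0.26 ± 0.14, 0.04 ± 0.12 and -0.22 ± 0.14 (edgeR adjusted p 0.130, 0.830 and 0.187, for EL against EH, ELR against EL and ELR against EH). Under harringtonine, on 3 to 15 counts, the differences were 0.16 ± 0.64, 0.52 ± 0.50 and 0.67 ± 0.58 and none was called by edgeR or DESeq2 (lowest unadjusted edgeR p 0.243). GADD45B, RGS2, EFNA1 and GADD45G did not pass the filter there.

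**Figure D4:**
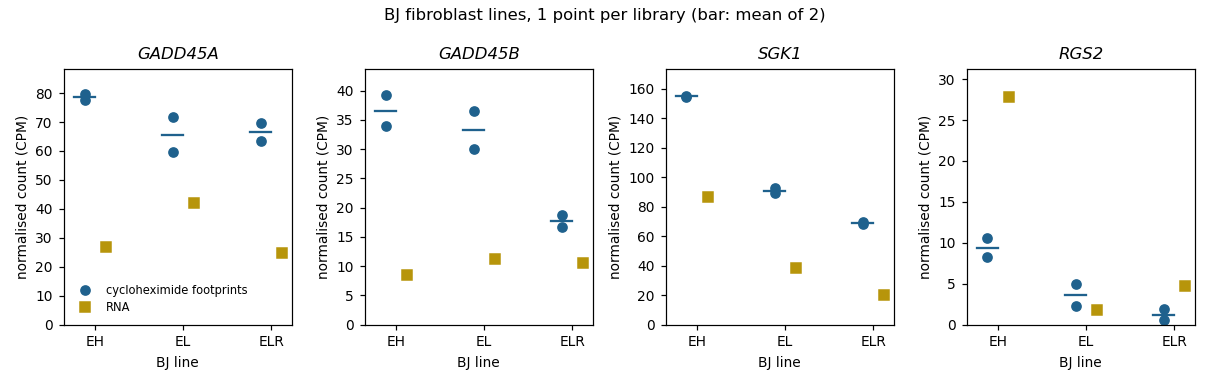
Normalised counts (CPM, y axis) of 4 members in the BJ lines EH, EL and ELR (x axis); circles are cycloheximide footprints with the mean of 2 libraries as a bar, squares the single RNA library. SGK1 footprints step down from 155 to 68.8, and GADD45B footprints are lowest in ELR while its RNA is not.

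Of the 4 members tested in BJ cycloheximide footprints, 2, 2 and 3 were lower in EL against EH, ELR against EL and ELR against EH, and none was higher. In those comparisons 41.5%, 36.1% and 53.4% of all 9996 genes were called in either direction. Called lower were 2241, 1871 and 2781 of them. Whether the members differ from this background was not tested. Under harringtonine 0, 0 and 1 of 2 tested members were called, against 18.5%, 16.3% and 30.7% of 3553 genes. DESeq2 called none of them there, and 0, 1 and 1 had an unadjusted edgeR p under 0.05.

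In the same BJ cycloheximide footprints, 9 of 17 tested p53 targets fell and none rose in EL against EH (median -0.60, against -0.01 for all genes), and 11 fell and 1 rose in ELR against EH (median -0.55, against -0.01). Of all 9996 genes, 2241 were called lower and 1909 higher in EL against EH. The numbers were 2781 and 2552 in ELR against EH, and 1871 and 1735 in ELR against EL. All list counts of this paragraph stand beside these backgrounds. In ELR against EL, 3 fell and 3 rose (median -0.23, against -0.01). Among those that rose were the nuclease AEN (log2 difference 0.65 ± 0.16, edgeR adjusted p 0.000494) and the death receptor TNFRSF10B (0.44 ± 0.14, 0.00842). The AEN call was lost in 2 of 11 alternatives and that of TNFRSF10B in 4 of 11. DESeq2 called neither (adjusted p 0.081 and 0.163). CDKN1A, the cyclin-dependent kinase inhibitor p21, was at 144, 44.4 and 24.3 CPM in EH, EL and ELR, and FAS, a death receptor, at 59.4, 10.8 and 3.55 CPM. Their log2 differences between ELR and EH were -2.49 ± 0.15 and -4.10 ± 0.30 (edgeR adjusted p 1.06e-23 and 4.32e-20). The p53 target GADD45A was not called lower in these comparisons, though its EL and ELR libraries all read below those of EH. Around SGK1, 2 of 11 rose and 2 fell in ELR against EH (median -0.07). NEDD4L rose while SGK1 fell, at 34.3, 60.9 and 160 CPM in EH, EL and ELR (2.25 ± 0.14 for ELR against EH, edgeR adjusted p 2.52e-23). NEDD4 also rose (62.4 to 92.4 CPM, 0.62 ± 0.14, edgeR adjusted p 7.91e-05). The substrate NDRG1 fell with SGK1 (34.4 to 18.8 CPM, -0.82 ± 0.23, edgeR adjusted p 0.00207), as did SGK3 (8.95 to 2.58 CPM, -1.65 ± 0.54, 0.00728). Those calls were lost in 2 (NDRG1) and 3 (SGK3) of 11 alternatives. Of 7 ephrins and Eph receptors, 3 rose and 3 fell in that comparison (median 0.45). EPHA2, the main receptor of EFNA1, rose from 95.6 CPM in EH to 169 CPM in ELR (0.84 ± 0.11, edgeR adjusted p 2.62e-10), while EFNA1 itself had no count in the EH and 1 count in the ELR footprints under cycloheximide. EPHA4, another EphA receptor, fell from 71.9 to 8.64 CPM (-3.02 ± 0.23, edgeR adjusted p 1.35e-18). EPHB2 rose from 11.3 to 54.4 CPM (2.26 ± 0.24, edgeR adjusted p 6.11e-13) and EPHB4 fell from 34.5 to 11.5 CPM (-1.55 ± 0.25, 3.5e-07). Of 12 genes of the RGS list, 2 rose and 4 fell in that comparison (median -0.20). RGS10 rose from 44.2 to 153 CPM between EH and ELR (1.84 ± 0.13, edgeR adjusted p 6.71e-20) and the subunit GNAI2 fell from 600 to 357 CPM (-0.71 ± 0.06, edgeR adjusted p 1.5e-17).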

How the data were processed

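Each deposited table holds whole-number read counts per transcript, made by the authors with TopHat on hg19 (GRCh37), per the submitters' processing notes, without versions, and by a counting step not given in the sources used here. All tables list 36499 transcripts. For the 7636 symbols with several, the one of highest mean count stood for the gene. A read may count for several isoforms.

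The members and lists were chosen with earlier results of these data known. Counts were fitted with edgeR 4.0.16 (R 4.3.3) quasi-likelihood models after its filter on low counts (minimum 10, total 15), with TMM scaling, two-sided tests and Benjamini-Hochberg adjustment, called under 0.05. There were 11 comparisons fitted, 8 of them tests of members. SEs are the log2 difference over the root of F. Log2 ratios of single libraries used a pseudocount of 1 CPM; folds of single libraries used none. Alternatives included DESeq2 1.42.0. Named list genes are at most the 4 of smallest p among those called. Where leaving out a library left 1 in an arm, that library was assumed to vary like the other groups. Only the ER-Src cycloheximide fit was tried on simulated counts, for tamoxifen 24 h against 4 h and with 1 fixed spread. The RNA and BJ fits were not simulated. In the uninduced footprint arm, vehicle and replicate number cannot be told apart. Floors and counting intervals hold for counting error alone, because the labels mention no molecular identifiers; the 1 h RNA has 1 library and was only described.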

Additional observations from a re-analysis of the deposited data

Results flagged for a closer look

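Among 10 groups of 4 uninduced libraries (5 genes in RNA and in footprints), 2 held a library far from the others, where chance flags about 1 group in 20. The 5 groups of each readout share the same 4 libraries and are not independent, so an excess over chance was not tested. RGS2 footprints at 0 h (208 CPM, replicate 1) stood apart from the 3 ethanol libraries (96.4 to 99.9 CPM, replicate 2), with a gap of 0.969 of the whole range. SGK1 RNA in ethanol at 24 h (18.5 CPM) stood apart from the other uninduced RNA libraries (26.8 to 27.0 CPM), with a gap of 0.987 of the range. For RGS2, vehicle, time and replicate number differ along with the library and cannot be told apart. For SGK1, the ethanol libraries of 1 and 4 h share vehicle and replicate number with the low one, and time cannot be told apart from the single library.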

How the results depend on the processing

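The comparisons of members were repeated with other scaling, another tool, no filter, the second transcript, other spreads and without single libraries. Over the members' tests, 263 of the repeated values kept direction and side of the threshold, 21 lost the call, 6 gained it and 9 turned direction; no cause was tested. The turned values all belong to uncalled differences: GADD45B at 24 against 4 h was -0.022 without tamoxifen 4 h replicate 2 (range without 1 library -0.022 to 0.54); GADD45A late RNA was 0.32 without the 24 h library (range -1.54 to 0.32); in BJ cycloheximide footprints GADD45B in EL against EH was 0.014 with library totals and 0.036 without EL replicate 1 (range -0.25 to 0.036), and GADD45A in ELR against EL was -0.0079 with totals, -0.10 without EL replicate 1 and -0.015 without ELR replicate 2 (range -0.10 to 0.16); under harringtonine GADD45A in EL against EH was -0.16 without EL replicate 1 and -0.19 without EH replicate 2 (range -0.19 to 0.62). The described differences from uninduced stayed within 1 SE in 190 of their repeats and moved more in 35. Among them, GADD45A at 4 h (-0.23 ± 0.32) turned to 0.021 without tamoxifen 4 h replicate 1 and to 0.25 for replicate 2 over ethanol of the same time.

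Counts of called genes moved more. At 24 against 4 h (857) they were 1299 with the spread of all 16 libraries and 181 to 643 without 1 library. Against uninduced, the 2 at 1 h became 12 with DESeq2, 22 with no filter, 7 with the spread of all 16 libraries and 0 to 6 without 1 library. The 87 at 4 h became 175 with no filter and 9 to 82 without 1 library, and the 1492 at 24 h 703 to 1960. Late RNA (45) gave 127 with DESeq2, 177 with no filter and 0 to 686 without 1 library. BJ cycloheximide calls were 2461 (EL against EH) and 1822 (ELR against EL) with DESeq2, and 2608 and 1781 with the spread of all 16 libraries. BJ harringtonine calls were 255, 187 and 491 with DESeq2, and 414 to 456, 347 to 396 and 716 to 869 without 1 library. With library totals, calls that were higher went from 46.0% to 60.7% in EL against EH under cycloheximide, and from 40.8%, 39.2% and 43.4% to 70.8%, 51.9% and 72.8% under harringtonine.

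Over all genes, replicate numbers paired the libraries weakly or not at all: deviations of same-numbered libraries correlated at 0.04 to 0.18 in ER-Src and -0.02 to 0.03 in BJ. Single members can differ from this, since replicate 1 was the higher of each tamoxifen pair for RGS2 and EFNA1. The main fits hold no replicate term. With the replicate number as a block, 1008 genes were called at 24 against 4 h (RGS2 then at adjusted p 0.000408 and SGK1 at 0.0476), 4, 77 and 1507 against uninduced at 1, 4 and 24 h, 4133, 3620 and 5311 in BJ cycloheximide and 636, 554 and 1058 in BJ harringtonine footprints. Late RNA has 1 replicate number and allowed no block. Harringtonine depth, 129175 to 374359 counts, left 2 of 6 members testable.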
